A study of Rattus norvegicus with 8 samples.

Results

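The small heat shock proteins and their co-chaperone Bag3 were followed in rat diaphragm after myocardial infarction. The group is 8 genes, Cryab, Hspb1, Hspb2, Hspb3, Hspb6, Hspb7, Hspb8 and Bag3, chosen by symbol from the 17055 rows of the deposited count table. All 8 were found, and all 8 passed the filter on low counts that left 10522 genes for testing. RNA was sequenced from the diaphragm of 8 Sprague-Dawley rats, 1 library per animal, 16 weeks after chest surgery. In the MI group (n = 4, replicates 1 to 4) the left anterior descending coronary artery had been tied. The Sham group (n = 4, replicates 5 to 8) had anaesthesia, ventilation and thoracotomy but no tie. Neither group carries a transgene or a drug, and the labels give neither the sex of the animals nor the size of the infarcts.

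Small heat shock proteins are chaperones that need no ATP. They share an alpha-crystallin domain, assemble into oligomers and hold unfolding proteins until other chaperones or the degradation machinery take over. Striated muscle makes many of them, and there they bind desmin, filamin, actin and titin at the Z-disc. Bag3 couples Hspb8 to Hsp70 and directs damaged filamin to autophagy, and mutations of human BAG3, CRYAB, HSPB3 and HSPB8 cause muscle or motor nerve disease. Heat shock factor 1 (HSF1) activates several of these genes by binding inverted repeats of GAA, the heat shock element.

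RefSeq sequence around the transcript start (build GRCr8, 250 bases before to 50 after it) was at hand for 6 of the members. The windows below are shown because they let the HSF1-type letters be compared between members whose RNA is described next. Capitals mark the match to GAANNTTC, the head-to-head pair of GAA units, which reads the same on both strands.

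Hspb1 (chr12:26432412-26432441, minus strand): cttcaactagaGAAGTTTCcagatgggggc
Hspb6 (chr1:94934212-94934241, plus strand): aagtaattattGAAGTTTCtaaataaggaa
Hspb8 (chr12:45837274-45837303, plus strand): agaagccaggaGAAGTTTCtaggcgcgtga
Bag3 (chr1:192533317-192533346, plus strand): ggatgggaccaGAAGTTTCtagccggccag

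The first capital lies 129 bases before the start in Hspb1, 149 in Hspb6, 23 in Hspb8 and 132 in Bag3. GAANNTTC was found in 4 of the 6 members and in 8.34% of 27457 RefSeq promoters of the same length. All 4 carried the same form of it, GAAGTTTC, which on either strand was found in 1.44% of those promoters. This shorter description was made after the sequences were seen. Hspb1 held a second GAANNTTC, and Hspb6 also held the tail-to-tail form TTCNNGAA, which was in 1 of the 6 members and 8.49% of promoters. The letters TATAAA, searched on both strands, were in Hspb3, Hspb6 and Hspb7, 3 of the 6, and in 14.3% of promoters. A match describes letters and is no evidence of binding.

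Library totals ran from 8566143 to 15944048 counts in MI and from 7941402 to 24967251 in Sham. A floor of 3 counts was at most 0.378 counts per 1000000 (CPM), while the lowest member value was 50.8 CPM, so counting error was small for all members. Muscle markers were abundant in every library, with summed levels of 64954 to 101468 CPM in MI and 71863 to 106205 CPM in Sham for 13 fast-fibre genes. Single fibre genes could still differ widely among animals, as Myh4 ran from 11.4 to 3700 CPM in MI and from 138 to 2083 CPM in Sham. Of 8 heart muscle markers, Nppa, Nppb and Myl7 had 1, 2 and 0 counts over the 8 libraries together, and the 5 tested ones had a summed level of 68.8 to 186.0 CPM in MI and 30.2 to 135.2 CPM in Sham. Among them Myh6, the alpha myosin heavy chain of heart muscle, averaged 82.0 CPM in MI and 30.8 CPM in Sham. Its log2 fold change was 1.40 ± 0.99 (edgeR adjusted p = 0.707). Of the 5 tested markers 3 lay above 0 and 2 below, with Tnnt2 at -0.58 ± 0.55 and Tnni3 at -0.30 ± 0.34. The part of these genes in the results below was not tested. The 8 members took 0.959% ± 0.142 of all counts in MI and 0.937% ± 0.0872 in Sham (SD, n = 4 each).

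No member passed the test of MI against Sham, and the estimated fold changes lay between 0.854 for Hspb7 and 1.22 for Cryab. At an adjusted p under 0.05 in edgeR's quasi-likelihood test 0 of the 8 members passed, against 0% of all genes tested in either direction, and 0 passed in DESeq2 and in limma-voom. At an unadjusted p under 0.05 edgeR gave 1 member, Cryab, against 8.14% of all genes (856, with 3.67% MI higher and 4.47% MI lower). Fitted to the same 8 libraries, DESeq2 and limma-voom also gave Cryab as the 1 member, against 834 and 899 of 10522 genes. The log2 fold changes of MI over Sham were above 0 for 4 of the 8 members, against 48.7% of all genes, and below 0 for 4, against 51.3%. Their median was 0.026, and that of all genes -0.0070. In bulk tissue, fewer cells of a type and less RNA per cell cannot be told apart.

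**Figure D1:**
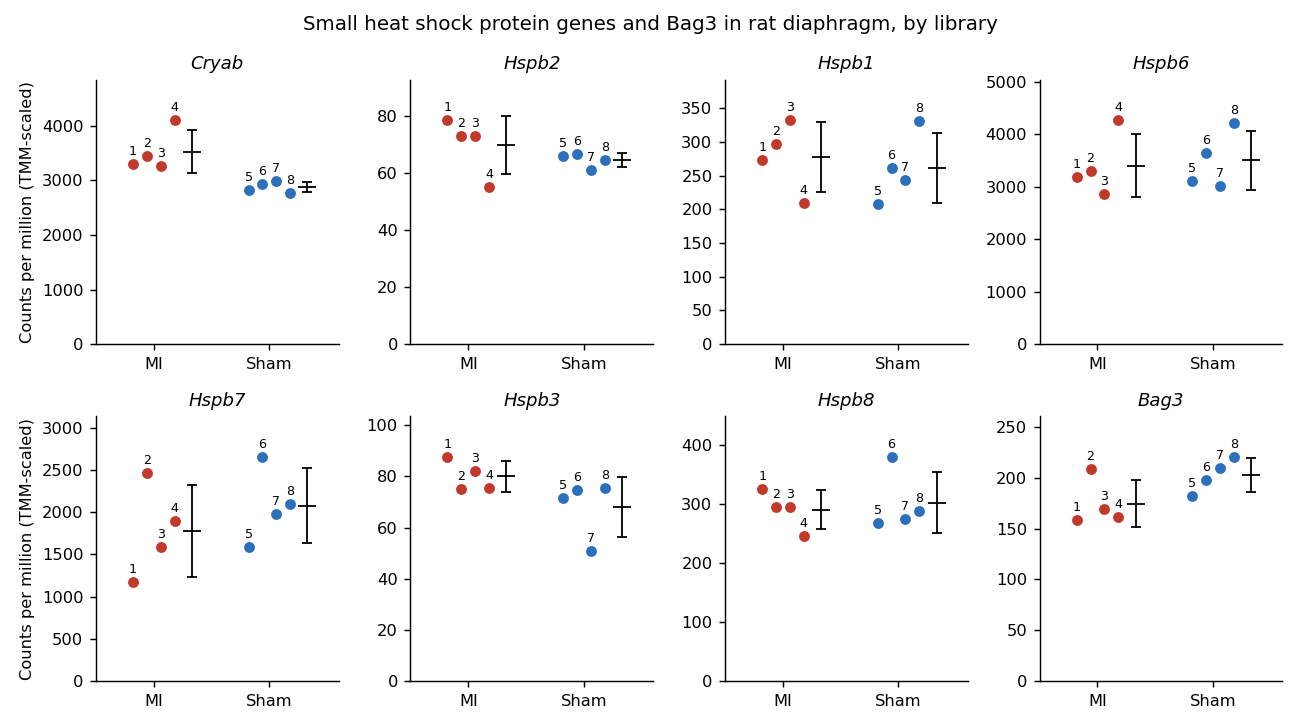
TMM-scaled CPM (vertical axes, starting at 0) of each member in the MI (left, red) and Sham (right, blue) libraries, with the replicate number above each point and the group mean ± SD beside it (n = 4 each). For Cryab the 4 MI points, 3254 to 4102 CPM, lie above all Sham points, and for the other 7 genes the groups overlap.

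Cryab, which encodes alpha B-crystallin, the chaperone of desmin filaments, was the member in which the groups did not overlap. It stood at 3293, 3437, 3254 and 4102 CPM in MI replicates 1 to 4, against 2822, 2934, 2985 and 2767 CPM in Sham replicates 5 to 8. All MI libraries lay above all Sham libraries, the Sham values were close together, and MI replicate 4 stood highest. The mean was 3521 ± 395 CPM in MI and 2877 ± 100.1 CPM in Sham (SD, n = 4 each). Cryab was thus 1.22-fold higher on average, or 0.29 ± 0.09 on the log2 scale (SE; 95% interval 0.088 to 0.49). This difference did not pass in edgeR (adjusted p = 0.601, unadjusted p = 0.0093) or DESeq2 (adjusted p = 0.266). MI libraries all stood above Sham libraries in 1 of the 8 members and in 2.09% of the genes tested, and all below them in 0 members and 2.46% of the genes tested.

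The labels' animal numbers fall in 2 ranges. Because all MI libraries lay above all Sham libraries, Cryab had to be higher in MI in both ranges, which adds no support. In the lower range it averaged 3365 CPM in MI (n = 2) and 2822 CPM in Sham (n = 1), and in the upper range 3678 CPM in MI (n = 2) and 2896 CPM in Sham (n = 3). The smallest estimate with 1 library left out was a log2 fold change of 0.21, without MI replicate 4. Some of the non-muscle lists, but not all, stood highest in that same library. The summed level of 5 red blood cell genes was 366.7 to 801 CPM in MI against 235.4 to 376.7 CPM in Sham, and that of 5 fibroblast genes 1806 to 3263 CPM in MI against 1674 to 2339 CPM in Sham, both with their maximum in MI replicate 4. For 4 adipocyte genes it was 20.6 to 129.1 CPM in MI, again highest in replicate 4, against 19.9 to 64.0 CPM in Sham. The summed level of 4 Schwann cell genes was 111.3 to 153.9 CPM in MI, highest in replicate 2, against 86.4 to 126.7 CPM in Sham. Macrophage, lymphocyte and smooth muscle sums were instead highest in Sham replicate 7, at 129.0, 15.5 and 220.4 CPM. The mean log2 CPM of the fast-fibre genes was lowest in MI replicate 4, at 11.28, with 11.32 in MI replicate 2. Their summed level was instead lowest in MI replicate 2, at 64954 CPM, with 67301 CPM in MI replicate 4. The part of these cell types in the Cryab difference was not tested.

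Hspb2, which in muscle pairs with Hspb3, neighbours Cryab in the rat genome. The annotated spans of the pair overlap in GRCr8. If they also overlap in the annotation behind the counts, reads of libraries that keep no strand cannot be assigned there. Both values would then carry that uncertainty. Whether the spans also overlap in the annotation behind the counts is not given in the sources used here. Hspb2 was at 78.5, 73.1, 72.8 and 55.0 CPM in MI, against 65.8, 66.6, 61.1 and 64.5 CPM in Sham. MI replicates 1 to 3 lay above every Sham library and MI replicate 4 below every one, the reverse of its place for Cryab. The log2 fold change was 0.12 ± 0.11 (edgeR adjusted p = 0.757), 0.21 without MI replicate 4 and 0.052 without MI replicate 1. Counts of Cryab were 42.0 to 47.0 times those of Hspb2 in MI replicates 1 to 3 and 74.6 times in MI replicate 4, against 42.9 to 48.9 times in Sham.

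Hspb3, the muscle partner of Hspb2, was at 87.7, 75.0, 82.3 and 75.4 CPM in MI, against 71.8, 74.6, 50.8 and 75.5 CPM in Sham. The groups overlapped through Sham replicate 8, and Sham replicate 7 was far below the rest. The log2 fold change was 0.24 ± 0.12 (95% interval -0.038 to 0.51; edgeR adjusted p = 0.639), and 0.11 without Sham replicate 7.

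**Figure D2:**
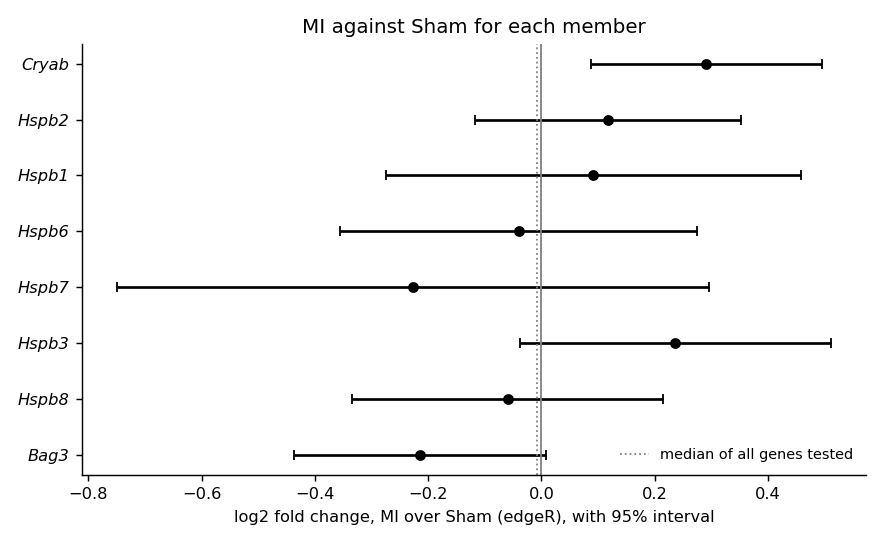
Log2 fold change of MI over Sham from edgeR for each member (points) with its 95% interval (bars, not adjusted for the number of genes). The solid line is 0 and the dotted line the median of all genes tested, -0.0070. The interval of Cryab, 0.088 to 0.49, lies above 0, that of Bag3 ends at 0.0084, just above 0, and the other 6 also span 0.

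Hspb1, a stress-phosphorylated chaperone that protects actin filaments, differed more among animals than between groups. It was at 272.4, 297.4, 332.2 and 209.3 CPM in MI, against 207.9, 261.7, 243.9 and 330.6 CPM in Sham. Both groups covered nearly the same range. The log2 fold change was 0.09 ± 0.16 (95% interval -0.27 to 0.46; edgeR adjusted p = 0.883), and its sign turned without MI replicate 3 or Sham replicate 5.

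Hspb6, a target of cyclic nucleotide-dependent kinases known from smooth and heart muscle, was at 3178, 3309, 2863 and 4271 CPM in MI, against 3119, 3642, 3022 and 4224 CPM in Sham. The highest value of each group came from its smallest library, MI replicate 4 with 8566143 counts and Sham replicate 8 with 7941402. A part of library size in these levels was not tested. The log2 fold change was -0.04 ± 0.14 (95% interval -0.35 to 0.27; edgeR adjusted p = 0.948), and -0.065 without both of those libraries, a step added after seeing the data. The summed level of 7 smooth muscle markers was 158.7 to 201.9 CPM in MI and 160.6 to 220.4 CPM in Sham.

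Hspb7, which binds filamin C and is most studied in the heart, varied most. It was at 1168, 2460, 1586 and 1894 CPM in MI, against 1584, 2658, 1975 and 2101 CPM in Sham. The highest library held 2.28 times the lowest, and MI replicate 1 was the lowest of all 8. The within-group coefficient of variation of Hspb7 was 25.8%, against 9.0% for Cryab and a median of 9.0% over the 2088 genes with mean levels in the members' range. The log2 fold change was -0.23 ± 0.23 (95% interval -0.75 to 0.30; edgeR adjusted p = 0.787), and -0.078 without MI replicate 1.

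Hspb8 and Bag3 act as 1 complex in selective autophagy of filamin. Hspb8 was at 325.6, 294.2, 294.9 and 245.5 CPM in MI, against 268.3, 380.0, 273.8 and 287.3 CPM in Sham. Sham replicate 6 was the highest and MI replicate 4 the lowest, with the other 6 libraries between 268.3 and 325.6 CPM. The log2 fold change was -0.06 ± 0.12 (95% interval -0.33 to 0.22; edgeR adjusted p = 0.905), with a sign that turned without MI replicate 4 or Sham replicate 6.

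Bag3 was at 158.8, 208.5, 169.3 and 161.5 CPM in MI, against 181.9, 198.2, 209.6 and 220.7 CPM in Sham. MI replicates 1, 3 and 4 lay below every Sham library, and MI replicate 2 lay within the Sham range. The means were 174.5 ± 23.1 CPM in MI and 202.6 ± 16.6 CPM in Sham (SD, n = 4 each). On the log2 scale the fold change was -0.21 ± 0.10 (SE; 95% interval -0.44 to 0.0084; edgeR adjusted p = 0.616, unadjusted p = 0.0578). With 1 library left out, the value furthest from 0 was -0.32, without MI replicate 2 (unadjusted p = 0.0048, adjusted p = 0.452 in edgeR). In that run 1090 of 10572 genes tested had an unadjusted p under 0.05. The value nearest 0 was -0.17, without Sham replicate 8 (unadjusted p = 0.148 in edgeR). The 2 ranges of animal numbers did not give the same picture. In the lower range Bag3 averaged 183.7 CPM in MI (n = 2) and 181.9 CPM in Sham (n = 1), and in the upper range 165.4 CPM in MI (n = 2) and 209.5 CPM in Sham (n = 3). With the range as a term the log2 fold change was -0.21 ± 0.11. Counts of Hspb8 were 1.68 ± 0.282 times those of Bag3 in MI and 1.5 ± 0.289 times in Sham (SD, n = 4 each), a difference smaller than the SD of either group.

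No pair of members passed a test of varying together across the 8 animals. Of the 28 pairs of members, 16 had a Pearson r above 0 on log2 CPM, and r ran from -0.59 to 0.72. At an adjusted p under 0.05 (exact permutation over all 40320 pairings, two-sided, Benjamini-Hochberg over the 28 pairs) 0 pairs passed, and 1 pair had an unadjusted p under 0.05. That pair was Hspb7 and Bag3, named after its value was seen, with r = 0.72 (exact p = 0.043, adjusted 0.695) and Spearman rho = 0.69 (exact p = 0.069, adjusted 0.846). Without MI replicate 1 and Sham replicate 6, the libraries farthest from the median of Hspb7, r was 0.66 (exact p = 0.172). Hspb8 and Bag3, partners in the complex, had r = 0.13 (exact p = 0.777, adjusted 0.813) and rho = -0.095 (exact p = 0.840, adjusted 0.915), and r = -0.55 without Sham replicate 6 and MI replicate 4.

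Cryab and its neighbour Hspb2 had r = -0.22 (exact p = 0.598, adjusted 0.813) and rho = 0.17 (exact p = 0.703, adjusted 0.915). The sign of r rested on MI replicate 4, since r was 0.79 over the other 7 libraries (exact p = 0.043, adjusted 0.398). Without MI replicate 4 and Sham replicate 8 r was 0.78. In both of these runs every MI library lay above every Sham library for both genes. These values of r therefore include the difference between groups and do not show that the genes vary together within a group. As deviations from the group means over all 8 libraries, r was -0.92 (permutation p = 0.0049, adjusted 0.138). This p is not exact, because centring ties the values within each group while the permutation mixed the groups. MI replicate 4 was the highest MI library for Cryab and the lowest for Hspb2, so it also weighs on this value. Ranges of animal numbers held 3 and 5 libraries, and no correlation was computed within either.

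**Figure D3:**
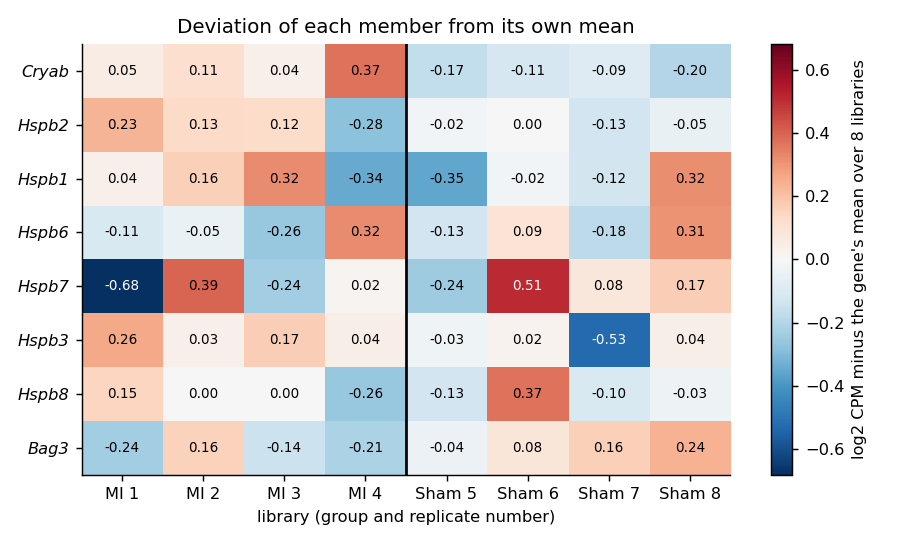
Log2 CPM of each member (rows) in each library (columns, MI left of the line and Sham right of it) minus that gene's mean over the 8 libraries, red above and blue below 0. In MI replicate 4 Cryab and Hspb6 are at 0.37 and 0.32 while Hspb1, Hspb2 and Hspb8 are at -0.34, -0.28 and -0.26, and the lowest cell is Hspb7 in MI replicate 1 at -0.68.

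Small heat shock proteins are known to be more abundant in slow than in fast fibres. Against the mean log2 CPM of 10 slow-fibre genes, 0 of the 8 members passed after adjustment over these 8 relations and 0 had an unadjusted p under 0.05 (exact permutation). The values of r ran from -0.38 for Hspb8 to 0.40 for Hspb6. For Hspb6 the exact p was 0.325 (adjusted 0.989), rho was 0.43 (exact p = 0.299, adjusted 0.977), and r was 0.29 without Sham replicates 8 and 5. For Cryab r was -0.13 (exact p = 0.778, adjusted 0.989) and rho -0.21 (exact p = 0.619, adjusted 0.977), and r was 0.69 without the same libraries (exact p = 0.125), so its sign rested on them. The summed slow-fibre level was 24982 to 27877 CPM in MI and 22784 to 31536 CPM in Sham.

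Genes most like a member over the 8 libraries were sought among 6626 genes with a mean of at least 10 CPM, by Pearson r of log2 CPM, as a description. For Cryab they were Phf3 (r = 0.96), Clptm1l (0.96) and Steap4 (0.96). For Hspb1 they were Nrf1 (0.93), Polr3e (0.93) and Gstt3 (0.91), and for Bag3 Daxx (0.96), Fgfr1 (0.95) and Ubqln4 (0.95). These values over 8 points, picked as the highest of 6626, carry no test.

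Related chaperone genes gave the same absence of calls. Of the rest of the small heat shock protein family, Cryaa, Hspb9 and Odf1 had 11, 1 and 1 counts over all libraries and were not tested. Hspb11, which despite its symbol is a component of intraflagellar transport, was at 9.0, 6.7, 7.1 and 7.5 CPM in MI against 4.7, 5.1, 4.8 and 6.6 CPM in Sham. Its log2 fold change was 0.53 ± 0.16 (edgeR adjusted p = 0.601). All MI libraries lay above all Sham libraries, as in 2.09% of the genes tested, though MI replicate 2 and Sham replicate 8 were nearly level.

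Of the other BAG family genes, all 5 were tested, 1 lay above 0 and 4 below, against 48.7% and 51.3% of all genes. The median was -0.050 on the log2 scale, 0 passed the adjusted threshold, and 1, Bag5, was lower at an unadjusted p of 0.037, against 4.47% of all genes under 0.05 in that direction. Bag5 was at 47.0 CPM in MI and 53.7 CPM in Sham, or -0.19 ± 0.08 on the log2 scale (edgeR adjusted p = 0.601), and its levels of 43.3 to 49.2 CPM in MI lay below those of 50.8 to 57.2 CPM in Sham, as in 2.46% of all genes. Bag1, the family's founding member and an Hsp70 nucleotide exchange factor, was at 24.9 CPM in MI and 21.6 CPM in Sham, or 0.21 ± 0.10 on the log2 scale (edgeR adjusted p = 0.624).

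Partners and clients of Bag3 leaned below 0, with 10 of 12 tested genes lower. Their median was -0.11 on the log2 scale. None passed in edgeR, and 0 had an unadjusted p under 0.05, while 51.3% of all genes lay below 0. Dnajb6, a co-chaperone of the Z-disc, was at -0.18 ± 0.09, Synpo at -0.31 ± 0.19, and the filamin client Flnc at -0.28 ± 0.22, each on the log2 scale. Without MI replicate 1 Synpo was at -0.18, and without Sham replicate 6 Flnc was at -0.049. The summed level of the list was lowest in MI replicate 1, at 1535 CPM. It was 1710 to 2080 CPM in MI replicates 2 to 4 and 1788 to 2390 CPM in Sham. All genes of the list were read in the same libraries, so the 10 lower genes are not separate results. Hspa8, the Hsp70 partner of Bag3 made by every cell, had only 58 counts over the 8 libraries, and Hspa1a had 5, so neither was tested. Such low totals for Hspa8 say nothing of its RNA level, since how multi-mapping reads were counted is not given in the sources used here.

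Cytosolic chaperones and HSF1 targets had 10 of 21 tested genes above 0. Their median was -0.012 on the log2 scale, while 48.7% of all genes lay above 0. At an unadjusted p under 0.05 in edgeR 2 of the 21 were higher and 1 lower, against 3.67% and 4.47% of all genes, and 0 passed after adjustment. Hsp90aa1, the inducible Hsp90, was at 115.2 CPM in MI and 97.6 CPM in Sham, a log2 fold change of 0.24 ± 0.10. Hspe1, the mitochondrial co-chaperonin, was at 0.20 ± 0.09, or 0.12 without MI replicate 1. The gene of the factor itself, Hsf1, was at 44.8 CPM in MI and 54.2 CPM in Sham, a log2 fold change of -0.27 ± 0.12, and the Hsp40 gene Dnajb5 was at -0.29 ± 0.16, or -0.090 without Sham replicate 6. Adjusted edgeR p for these 4 genes was 0.601, 0.603, 0.603 and 0.647.

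Filament and Z-disc genes, the proteins that small heat shock proteins guard, had 10 of 12 tested genes below 0. Their median was -0.100 on the log2 scale, while 51.3% of all genes lay below 0. None had an unadjusted p under 0.05 in edgeR, against 8.14% of all genes. Actn2, the Z-disc alpha-actinin, was at 3798 CPM in MI and 4342 CPM in Sham (-0.19 ± 0.13, or -0.078 without MI replicate 1), and Vim, the intermediate filament of non-muscle cells, at 228.0 CPM in MI and 251.7 CPM in Sham (-0.14 ± 0.12, or -0.059 without Sham replicate 8). This list and that of Bag3 partners share Flnc, and it also holds the ubiquitin ligase subunit gene Fbxo7, which encodes no filament protein. Here too the genes were read in the same libraries, so the 10 below 0 are not separate results.

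**Figure D4:**
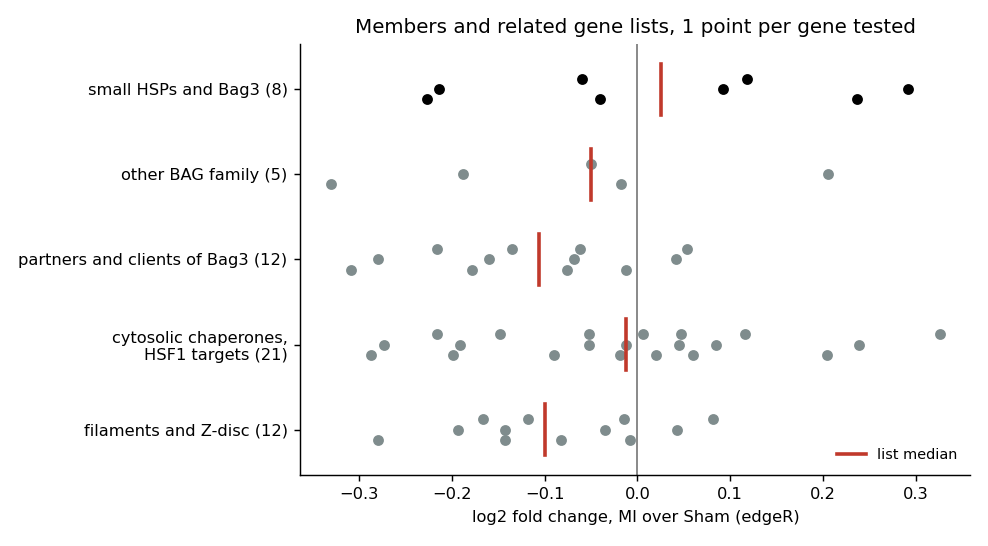
Log2 fold change of MI over Sham (horizontal axis) for each tested gene of the 8 members (black) and of 4 related lists (grey), with the number tested in brackets and the list median as a red bar. Medians lie at 0.026 for the members, -0.050 for the other BAG genes, -0.11 for Bag3 partners and clients, -0.012 for cytosolic chaperones and -0.100 for filament and Z-disc genes.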

How the data were processed

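The authors deposited raw read counts per gene symbol, 1 column per library, and all 8 columns matched a labelled sample. The submitters' processing notes list STAR 2.5.0a, Cufflinks, TopHat, TopHat2 and bcl2fastq, and rn5 as the build, without their order. Which program and annotation gave the counts is not given in the sources used here. Per the labels' protocols, RNA from snap-frozen tissue was copied with a SMARTer low-input kit. That the libraries keep no strand is background knowledge of this kit.

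Counts were scaled by TMM, filtered by filterByExpr and tested with edgeR 4.0.16 in R 4.3.3 (robust quasi-likelihood F test, two-sided, Benjamini-Hochberg over 10522 genes, threshold 0.05). CPM values are TMM-scaled, and correlations used log2 CPM with a prior count of 2. CPM is not corrected for transcript length, so levels were not ranked between genes. Ratios of the counts of 2 genes serve only to compare libraries. Promoter sequences came from RefSeq, which matched 8 members by name and 6 by sequence. Genes named are the 8 members, up to 4 genes of smallest p per related list, of which some are not reported here, and the 3 genes most like Cryab, Hspb1 and Bag3. List genes outside this rule, namely the untested ones, Myh4, Myh6, Tnnt2, Tnni3 and Fbxo7, were named after their values were seen. Members and lists were chosen with earlier results of these data known. Alternatives were RLE factors, library totals, 2 other filters, DESeq2 1.42.0, limma-voom (limma 3.58.1), non-robust estimation, a term for the animal number range and each library left out. On simulated data for this comparison, with 200 of 10522 genes changed, edgeR recovered 42.4% of genes changed 1.5-fold and 88.1% of those changed 2-fold. Each simulated gene had the spread typical of its abundance, not its own. These shares therefore do not hold for genes that vary more among animals. Hspb7, Hspb1, Hspb6 and Hspb8 had larger within-group coefficients of variation than 95.1%, 90.6%, 86.9% and 82.2% of genes in the members' range of levels. Because differences in spread between genes of like abundance were not simulated, the shares may also be too high for the rest. With 1 library per animal, p-values measure the spread between these animals, library preparation included. Labels do not state separate cohorts.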

Additional observations from a re-analysis of the deposited data

Results flagged for a closer look

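Within groups of 4 libraries, 22 sets of values were searched for a library far from the others, and 3 met the limit of Dixon's test at 95%, which chance meets in about 1 in 20 sets. Sham replicate 6 was far above the other Sham libraries for Hspb8, at 380.0 CPM. For Hspb3, Sham replicate 7 was far below the other Sham libraries, at 50.8 CPM. The ratio of Cryab counts to Hspb2 counts was 74.6 in MI replicate 4, far above the other 3 MI libraries. The annotated spans of these genes overlap in GRCr8, and the part of any such overlap in this ratio was not tested.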

How the results depend on the processing

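No member passed the adjusted threshold under any of the 17 alternatives. DESeq2 called 14 genes over the whole table where edgeR called 0, and leaving out 1 library gave 0 to 1 genes over the table (1 without MI replicate 1 or without MI replicate 3) and 0 to 0 members. Cryab (0.19 to 0.33), Hspb2 (0.052 to 0.21), Hspb3 (0.11 to 0.32), Hspb7 (-0.43 to -0.078) and Bag3 (-0.32 to -0.14) kept the sign of their log2 fold change throughout. For Cryab the kept sign adds no support, because its groups did not overlap. With 1 library left out, Hspb1 ran from -0.010 to 0.23, Hspb6 from -0.17 to 0.063, Hspb8 from -0.13 to 0.076 and the BAG family gene Bag4 from -0.13 to 0.068, so these signs depend on single libraries. With a term for the range of animal numbers, Hspb6 was at 0.0042. Without the 2 libraries with the lowest totals, chosen after seeing the data, Bag4 was at 0.0019, Cryab at 0.19 (unadjusted p = 0.0800) and Hspb1 at 0.34 (unadjusted p = 0.0176, adjusted 0.903 in edgeR). Pearson r with 1 library left out ran from -0.35 to 0.79 for Cryab and Hspb2 and from -0.18 to 0.36 for Hspb8 and Bag3, and 0 pairs or relations with slow-fibre genes passed in these runs. No paired analysis was possible because the groups share no replicate number. In data simulated for this comparison, with the spread typical of each gene's abundance, edgeR recovered 42.4% of genes changed 1.5-fold, and smaller changes were not simulated.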
